A study of Arabidopsis thaliana with 2 samples.

Results

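Distant alternative 3′ splice sites are pairs of acceptor sites that share a donor and lie more than 10 bases apart, so that an exon starts early or late. They were taken from the deposited table of alternative 3′ events by the difference of the 2 exon starts in the direction of transcription. The rule found 33 events in 32 genes, out of 66 alternative 3′ events and of 270 splicing events in all 4 deposited tables. An event of AT4G34280 whose junction spans over 10 kb was to be left out, but its sites lie 5 bases apart and it did not meet the rule. The nearest events inside the threshold were those of GalAK, at 11 bases, and AT1G23230, at 12 bases, and the nearest outside it lay 10 bases apart.

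RNA came from embryos of the Col-0 ecotype of Arabidopsis thaliana, dissected at the globular to heart stages. The lefko group held embryos of a mutant labelled lefko1 at the sample and lefko2 in the deposited tables, and the wild-type group held embryos of the same ecotype. Each genotype is 1 sample. The labels name neither the mutated gene nor the number of plants or embryos pooled. The study asked how the mutant differs in the processing of nuclear and chloroplast transcripts. Each table cell joins 3 read counts that no label explains, so they were summed, and the 3 values are given only to show their spread. Reads per event ranged from 5 to 2091 in lefko embryos (median 24) and from 4 to 2264 in wild-type embryos (median 77). In 29 of the 33 events lefko embryos had fewer reads, and so they had in 30 of the 33 other alternative 3′ events. The tables hold no expression levels, so the embryo label could not be checked against marker genes.

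At a 3′ splice site the U2AF heterodimer binds the pyrimidine tract and the AG that ends the intron, and the spliceosome joins the donor to an AG downstream of the branch point. Where 2 AGs far apart can both serve, the segment between them is exon in the longer form and intron in the shorter form. Such a segment can change an untranslated leader, insert residues, shift the reading frame or bring in a stop codon. A stop codon well upstream of the last exon junction is a feature by which plants recognise transcripts for nonsense-mediated decay.

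The following pairs are shown because the results below turn on them. Each line gives the last 20 intron bases and the first 3 exon bases, 5′ to 3′ on the gene's strand in TAIR10.1 (RefSeq), with the AG of the site in capitals.
AT2G23790 upstream site (chr2:10126658-10126680, minus strand): ttttggttccaattcaacAGgag
AT2G23790 downstream site (chr2:10126148-10126170, minus strand): ttgctattgtgtttgatcAGgtt
AT5G15740 upstream site (chr5:5137049-5137071, minus strand): gctgtggttagtttttccAGgct
AT5G15740 downstream site (chr5:5136922-5136944, minus strand): gagaagtttctttaccacAGgaa
HSP70T-2 upstream site (chr2:13653425-13653447, minus strand): aatcttgaatcctgaatcAGaaa
HSP70T-2 downstream site (chr2:13653412-13653434, minus strand): gaatcagaaatctatggcAGgaa
AT1G52560 upstream site (chr1:19575199-19575221, minus strand): ttttcttcttcttaaaacAGagt
AT1G52560 downstream site (chr1:19575178-19575200, minus strand): gttctttcctccgactatAGgaa
GalAK upstream site (chr3:3348682-3348704, minus strand): tattattttatgatcgccAGaaa
GalAK downstream site (chr3:3348671-3348693, minus strand): gatcgccagaaatgtgacAGgtt
GDPD2 upstream site (chr5:16442292-16442314, plus strand): atttagatatctatttatAGatt
GDPD2 downstream site (chr5:16442398-16442420, plus strand): gtgtggtttttcttttgtAGgtg
MAF3 upstream site (chr5:25990064-25990086, plus strand): ttggcgacttatgaatacAGcaa
MAF3 downstream site (chr5:25990097-25990119, plus strand): tcaaatgtcgataatgtaAGtgt

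The upstream site, read as the share of longer-exon reads, had a larger share in lefko embryos in 19 of the 33 events and a smaller one in 14. Over all 66 alternative 3′ events it was larger in 56.1% and smaller in 43.9%. The authors listed 2.37% of the alternative 3′ events they tested, so every member was chosen for a difference in these same samples, and the differences below are a description. On the summed reads 25 of the 33 had a two-sided Fisher's exact p under 0.05, against 78.8% of the table, and 21 passed after Benjamini-Hochberg adjustment over the table's events, against 72.7%. This test compares the 2 samples and not the genotypes, since nothing says that the 3 values are separate cultures or plants. The 3 values of lefko embryos did not overlap with those of wild-type embryos in 25 events, against 78.8% of the table. In the rest of the table each of these 3 counts was 27 of 33. Some values behind the last count rest on 1 or 2 reads, such as those of wild-type embryos at AT3G14880. The median size of the difference was 26.1 percentage points. The split by direction differed between subsets: it was 12 larger and 13 smaller among the events whose values did not overlap, 13 and 13 without events that share shorter-form reads, and 8 and 11 with the authors' FDR under 0.01. In 5 events all lefko reads came from the longer exon, and in another 5 all came from the shorter one.

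**Figure D1:**
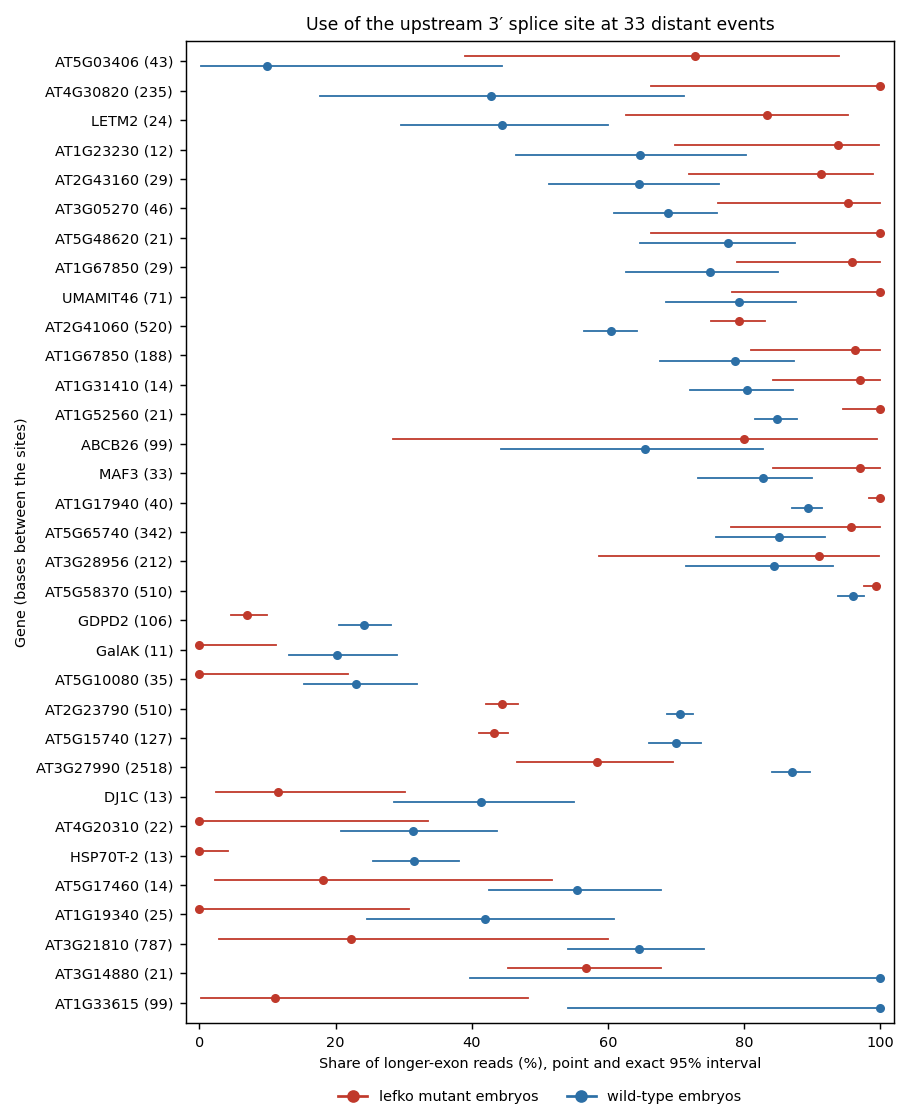
Share of longer-exon reads (x axis, %) at the 33 distant events (y axis, gene and bases between the sites), with exact 95% intervals that cover counting error only. Red points are lefko mutant embryos and blue points wild-type embryos; the narrow intervals belong to the events with many reads, such as AT2G23790 and AT5G15740.

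The events with the most reads showed a moderate shift. AT2G23790, of the mitochondrial calcium uniporter family, used an upstream site that adds 510 bases (chr2:10126151-10126660, minus strand) in 44.4% of 1734 lefko reads (95% interval 42.0 to 46.8), against 70.5% of 2264 wild-type reads (68.6 to 72.4). The 3 values were 46.8%, 44.0% and 42.8% in lefko embryos and 73.8%, 67.5% and 70.1% in wild-type embryos, and the ranges did not overlap. The log2 odds ratio was -1.58 (Fisher's exact p = 1.93e-62, adjusted p = 1.28e-60). The junction from this donor to the upstream AG is not in any annotated transcript. With the segment the frame ends after 202 codons, and without it after 336.

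AT5G15740, an O-fucosyltransferase family gene, had the most lefko reads of the 33. Its longer exon (segment of 127 bases, chr5:5136925-5137051, minus strand) took 43.2% of 2091 lefko reads (41.0 to 45.3), against 69.9% of 592 wild-type reads (66.1 to 73.6). The values were 48.7%, 40.9% and 41.1% in lefko embryos and 71.2%, 68.4% and 70.6% in wild-type embryos, again without overlap (Fisher's exact p = 4.72e-31, adjusted p = 1.04e-29). The segment holds the annotated start codon, whose first base is 5136956, so the shorter exon lacks it. The donor exon (5138548 to 5138732) lies 840 bases upstream of the annotated gene, and neither junction is annotated. Lefko embryos had 3.53 times as many reads here as wild-type embryos, whereas the median ratio over the 33 events was 0.360.

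AT2G41060, which encodes an RNA-binding protein with RNA recognition motifs, went the other way. Its sites lie 520 bases apart in the 3′ UTR (chr2:17128775-17129294), and the longer form took 79.3% of 420 lefko reads (75.1 to 83.1), against 60.4% of 636 wild-type reads (56.5 to 64.2). Its values were 85.6%, 75.7% and 76.8% in lefko embryos and 60.6%, 61.7% and 58.1% in wild-type embryos (Fisher's exact adjusted p = 8.79e-10). AT3G27990, a non-coding RNA gene, has the longest segment, 2518 bases (chr3:10393201-10395718, minus strand). A listed alternative 5′ event of this gene has a donor within the segment, so the longer form need not hold all of it. The longer form took 58.4% of 77 lefko reads (46.6 to 69.6) and 87.0% of 586 wild-type reads (84.0 to 89.6). The 3 lefko values were spread widely, at 29.6%, 70.4% and 78.3%, while those of wild-type embryos were 90.2%, 82.9% and 88.3%. Without the first lefko value the difference was -13.0 points (Fisher's exact p = 0.0178), against -28.6 with all 3.

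AT5G58370, for a P-loop nucleoside triphosphate hydrolase, had the smallest difference of the 33. The longer exon took 99.3% of 298 lefko reads (97.6 to 99.9), against 96.0% of 449 wild-type reads (93.7 to 97.6), and the 3 values overlapped. Its downstream site lies in the neighbouring gene AT5G58375, for a methyltransferase-related protein, so the shorter form joins exons of both genes. The Fisher's exact adjusted p was 0.00946, and without the third lefko value the unadjusted p was 0.0778.

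**Figure D2:**
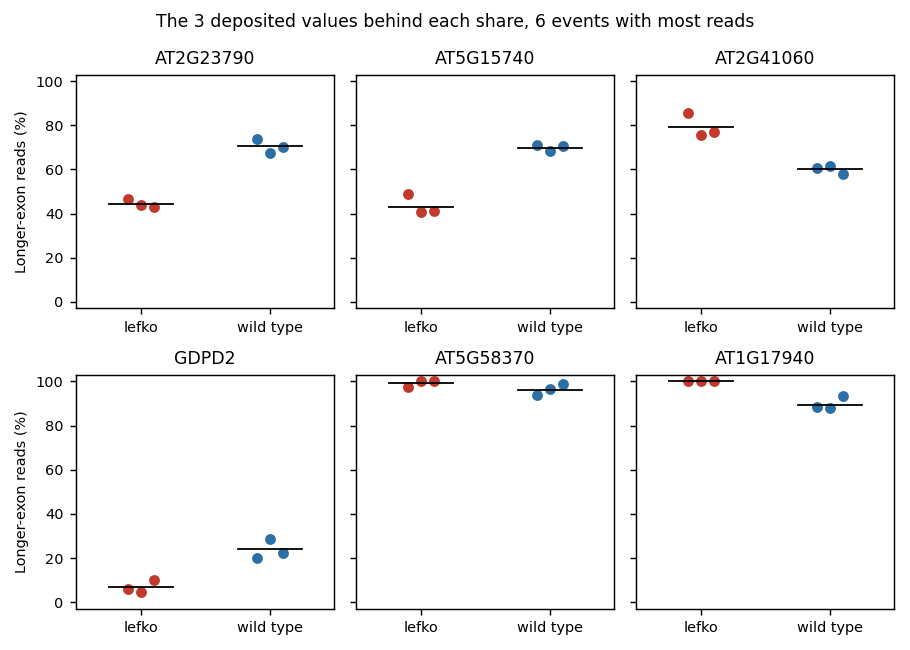
Share of longer-exon reads (y axis, %) for the 3 deposited values of each genotype (points) and for their summed reads (lines) at the 6 events with most reads, lefko embryos left and wild-type embryos right. The values of the genotypes are separate in 5 panels and overlap at AT5G58370.

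Chaperone genes held a pair of short segments whose minor form was absent from the lefko reads. HSP70T-2 encodes a heat-shock protein of the Hsp70 family. Its upstream site adds 13 bases, aaatctatggcAG (chr2:13653415-13653427, minus strand, the AG of the downstream site in capitals), to the 5′ UTR, including an ATG. It was used in 0 of 85 lefko reads, which allows a share of up to 3.53% by the limit of 3 reads and 4.25% by the exact interval, against 31.5% of 222 wild-type reads (25.5 to 38.1). All 3 lefko values were 0%, while those of wild-type embryos were 31.7%, 30.6% and 32.7% (Fisher's exact adjusted p = 5.84e-11). AT1G52560, a small heat-shock protein gene of the HSP20 class, has 2 sites that differ by 21 bases, agttctttcctccgactatAG (chr1:19575181-19575201, minus strand), in frame. The longer form, of 232 codons against 225, took all 65 lefko reads (94.5 to 100), against 84.8% of 546 wild-type reads (81.5 to 87.7). The 3 lefko values were 100%, while those of wild-type embryos were 84.0%, 84.5% and 86.9% (Fisher's exact adjusted p = 0.000272).

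Of the 33 segments, 18 lay in coding sequence: 11 shifted the frame, 3 were in frame with a stop codon and 4 were in frame with none. Another 8 lay in the 5′ UTR, 3 in the 3′ UTR and 2 in non-coding transcripts, and the events of AT5G15740 and AT5G58370 are described above. Among the other 33 events of the table, 16 shifted the frame, 12 were in frame without a stop, and 1 lay in the 5′ UTR. Lengths divisible by 3 numbered 11 of 33 here and 13 of 33 in the rest.

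Where the sites decide the reading frame, the form with the longer frame had a larger share in lefko embryos in 12 of 14 events, which include all 11 frame shifts. Its median share, not corrected for segment length, was 95% in lefko embryos and 63.6% in wild-type embryos. The same held in 14 of the 16 such events in the rest of the table, so it is not particular to distant sites. The frame-keeping form was the one with the longer exon in some genes and the one with the shorter exon in others. In 13 of the 14 the stop codon of the truncated form lay more than 50 bases before the last exon junction.

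Lefko embryos had fewer reads in 13 of these 14 events, with ratios of 0.0938 to 1.10, and in 29 of all 33. In the rest of the table they had fewer in 15 of the 16 such events. Among the 14, both exceptions to the pattern had fewer lefko reads, with ratios of 0.192 at ABCB26 and 0.264 at AT5G65740. The event of the 14 with more lefko reads, AT5G03406, followed the pattern. The longer frame was already the major form of wild-type embryos by reads in 9 of the 14, and its share was larger in lefko embryos in all 9, and in 3 of the other 5. Of these 5, AT2G23790, AT3G21810, AT5G65740 and ABCB26 hold segments of 510, 787, 342 and 99 bases in the truncated form. At AT5G03406 the segment is in the longer frame. Reads inside a segment may count only towards the longer exon, so the split into major and minor may depend on segment length, which was not tested. Over all 33 events the site with the smaller wild-type share had a smaller share still in lefko embryos in 23, and in the rest of the table also in 23 of 33. Without the 6 events that had no lefko read at one site, the longer frame had the larger lefko share in 6 of 8, against 11 of 13 in the rest of the table. In 10 of the 14 the Fisher's exact p was under 0.05, and in these 10 the longer frame had the larger lefko share. In the rest of the table it did in 12 of the 14 events with such a p. As all events were listed for a difference in these reads, this filter adds no separate support. The part that low counts at the minor site have in the result was not tested.

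**Figure D3:**
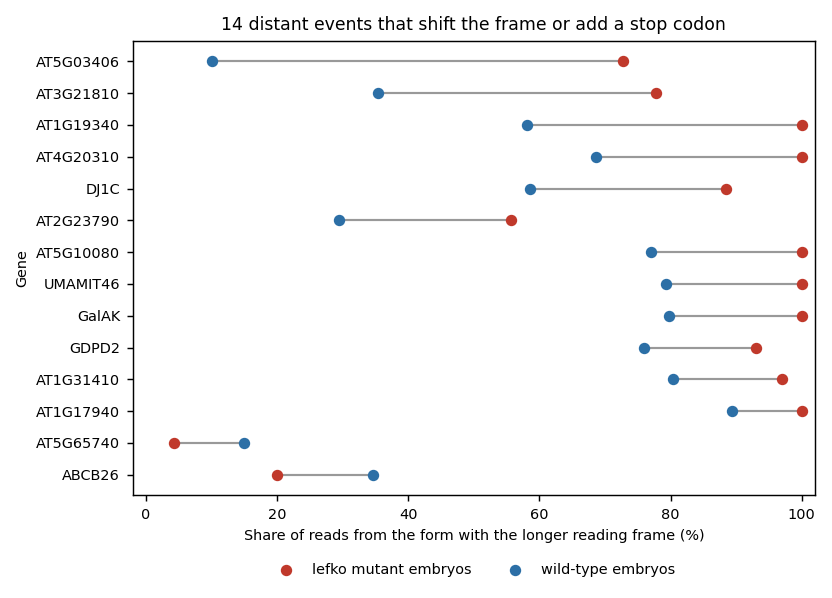
Share of reads from the form with the longer reading frame (x axis, %) at the 14 distant events that shift the frame or bring in a stop codon (y axis, genes), red for lefko embryos and blue for wild-type embryos. The red point lies to the right in 12 genes and to the left in AT5G65740 and ABCB26.

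In GDPD2 and GalAK, a pair of enzyme genes, the shorter exon keeps the frame and was the major form in both genotypes. GDPD2 encodes a glycerophosphodiester phosphodiesterase, of the PLC-like phosphodiesterase superfamily. Its 106-base segment (chr5:16442312-16442417) took 6.98% of 387 lefko reads (4.65 to 9.99), against 24.1% of 506 wild-type reads (20.4 to 28.1). The values were 5.77%, 4.79% and 10.2% in lefko embryos and 19.9%, 28.4% and 22.1% in wild-type embryos, without overlap (Fisher's exact adjusted p = 3.64e-11). With the segment the frame ends after 89 codons, against 374 without it. GalAK, the kinase that salvages galacturonic acid from pectin, has an 11-base segment, aaatgtgacAG (chr3:3348674-3348684, minus strand). It was in 0 of 31 lefko reads, which allows up to 9.68% by the limit of 3 reads and 11.2% by the exact interval, and in 20.2% of 109 wild-type reads (13.1 to 28.9; Fisher's exact adjusted p = 0.00811). Its values were 0% throughout in lefko embryos and 25%, 16.3% and 18.2% in wild-type embryos. The longer form ends after 165 codons and the shorter after 424.

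DJ1C belongs to the DJ-1 family and is known to be needed for chloroplast development. Its 13-base segment, ttcatcgtgcaAG (chr4:16299999-16300011, minus strand), was in 11.5% of 26 lefko reads (2.45 to 30.2) and 41.4% of 58 wild-type reads (28.6 to 55.1; Fisher's exact adjusted p = 0.0172). The values were 0%, 25% and 28.6% in lefko embryos and 41.7%, 38.5% and 50% in wild-type embryos. This event leaned on the first lefko value: without it the difference was -14.1 points and the Fisher's exact p 0.508. The segment shortens the frame to 223 codons, against 472.

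In AT1G17940 and AT1G31410 the longer exon keeps the frame. AT1G17940, a BRO1-domain gene linked by its domain to endosomal sorting, used it in all 214 lefko reads (98.3 to 100), against 89.4% of 800 wild-type reads (87.0 to 91.4). Its wild-type values were 88.3%, 88.0% and 93.2%, below the 100% of every lefko value (Fisher's exact adjusted p = 7.33e-09). The 40-base segment lies at chr1:6170104-6170143, minus strand, and its loss shortens the frame to 337 codons, against 405. AT1G31410, named for a putrescine-binding protein, used the longer exon (14 bases more) in 97.0% of 33 lefko reads (84.2 to 99.9), against 80.3% of 117 wild-type reads (72.0 to 87.1; Fisher's exact adjusted p = 0.0406). Its values were 100%, 100% and 90.9% in lefko embryos and 79.5%, 82.2% and 78.6% in wild-type embryos. Without the first lefko value the Fisher's exact p was 0.199.

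Other frame-shift events rested on 9 to 15 lefko reads. The upstream site was in 0 lefko reads at AT4G20310, a peptidase M50 gene, AT5G10080, an aspartyl protease gene, and AT1G19340, an MT-A70 methyltransferase gene. These had 9, 15 and 10 lefko reads, which allow shares of up to 33.3%, 20% and 30% by the limit of 3 reads and 33.6%, 21.8% and 30.8% by the exact interval. The wild-type shares were 31.4% of 70 reads, 22.9% of 109 and 41.9% of 31. Of these 3, AT1G19340 passed Fisher's exact test after adjustment (adjusted p = 0.0270), AT5G10080 had an adjusted p of 0.0513, and AT4G20310 one of 0.0694. The frame shift at AT4G20310 was read from the transcript with the longest coding sequence, and in another annotated transcript the segment lies in the 5′ UTR. AT3G21810, a CCCH zinc finger gene with a 787-base segment, had 2 of 9 lefko reads with it and 64.6% of 96 wild-type reads (Fisher's exact adjusted p = 0.0389). AT5G03406, of the class II aminoacyl-tRNA synthetase superfamily, had 8 of 11 lefko reads with its 43-base segment and 1 of 10 wild-type reads (Fisher's exact adjusted p = 0.0134). UMAMIT46, a transporter of the UMAMIT family, had 15 of 15 lefko reads and 79.2% of 77 wild-type reads, with a Fisher's exact adjusted p of 0.0789. With 1 value left out, the highest unadjusted Fisher's exact p was 0.343 at AT5G10080, 0.136 at AT1G19340, 0.101 at AT3G21810 and 0.106 at AT5G03406. At AT4G20310 the unadjusted Fisher's exact p ranged from 0.0382 to 0.313 with 1 value left out. At UMAMIT46 it ranged from 0.0294 to 1, the highest without the second lefko value, which holds 13 of its 15 lefko reads. Without the second lefko value the difference at AT3G21810 was -64.6 points, against -42.4.

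In 5 of the 14 events the frame of the longer exon ends within the segment. In 3 of these, AT2G23790, AT3G21810 and GDPD2, the longer frame had the larger lefko share, and in the other two, AT5G65740 and ABCB26, the smaller. In AT5G65740, for a zinc ion binding protein, the upstream site adds up to 342 bases (chr5:26302905-26303246, minus strand). It was used in 95.7% of 23 lefko reads (78.1 to 99.9) and 85.1% of 87 wild-type reads (75.8 to 91.8, Fisher's exact p = 0.293). Its values were 91.7%, 100% and 100% (the last from 1 read) in lefko embryos and 100%, 81.0% and 79.2% in wild-type embryos, which overlap. The frame was read with the whole segment placed in the 1 annotated transcript that uses the downstream site. Annotated readings of the 4 transcripts with the upstream site include another intron within the segment and a segment in the 5′ UTR. The stop codon of the longer form is therefore uncertain in this gene. The event listed under ABCB26 lies in the neighbouring gene AT1G70620, for a cyclin-like protein, with 4 of 5 lefko reads and 17 of 26 wild-type reads in the longer form (Fisher's exact p = 1). Its difference was 14.6 points with all values and -1.82 points without the first wild-type value.

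Transcription-related genes had segments of several kinds. MAF3, a MADS-box repressor of flowering related to FLC, used the longer, in-frame exon (33 bases more, chr5:25990084-25990116) in 97.0% of 33 lefko reads (84.2 to 99.9) and 82.8% of 87 wild-type reads (73.2 to 90.0). Its values were 100%, 93.3% and 100% in lefko embryos and 91.1%, 77.4% and 63.6% in wild-type embryos; the Fisher's exact p was 0.0670. With 1 value left out the p ranged from 0.00921, without the first wild-type value, to 0.184, without the first lefko value, and the difference from 11.3 to 23.2 points. AT1G23230, for a Mediator subunit, adds 12 bases, caattggcccAG, in frame; 15 of 16 lefko reads and 22 of 34 wild-type reads had them (Fisher's exact adjusted p = 0.0513, highest unadjusted p without 1 value 0.398). AT3G14880, for a transcription factor-like protein, adds 21 bases, ggttccatttgtcaaaggcAG, in frame. They were in 56.8% of 81 lefko reads (45.3 to 67.8) and in 4 of 4 wild-type reads (39.8 to 100; Fisher's exact p = 0.140). AT3G28956, for an Rpb4-like subunit of RNA polymerase II, had 10 of 11 lefko reads and 43 of 51 wild-type reads with a 212-base segment (Fisher's exact p = 1).

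The authors' deposited table gives AT3G14880 the smallest FDR of the 33, 3.19e-11, although it rests on 4 wild-type reads. For 24 of the 33 events the p-value in the authors' deposited table was more than 10 times smaller than the Fisher's exact p of the summed reads. The same held for 17 of 33 events in the rest of the table. Of the 8 events with a Fisher's exact p of 0.05 or more, 4 had fewer than 10 reads in a genotype.

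Segments in the 5′ UTR had a larger share in lefko embryos in 7 of 8 events, against 19 of all 33, and HSP70T-2, described above, was the exception. The 7 hold 2 events of AT1G67850 that share their shorter-exon reads, and AT3G28956, whose difference of 6.60 points (Fisher's exact p = 1) was -4.31 points without the second lefko value. LETM2, related to the LETM1 proteins of the mitochondrial inner membrane, kept its 24-base segment (chr1:24366066-24366089, minus strand) in 83.3% of 24 lefko reads (62.6 to 95.3) and 44.4% of 45 wild-type reads (29.6 to 60.0; Fisher's exact adjusted p = 0.00541). Its values were 100%, 73.3% and 100% in lefko embryos and 35%, 50% and 60.0% in wild-type embryos. The third lefko value held 1 read, and the third wild-type value 3 longer-exon and 2 shorter-exon reads. AT3G05270, for a filament-like protein, kept 46 bases in 95.2% of 21 lefko reads (76.2 to 99.9) and 68.8% of 157 wild-type reads (60.9 to 75.9; Fisher's exact adjusted p = 0.0155). The values were 100%, 83.3% and 100% in lefko embryos and 69.1%, 76.4% and 55.9% in wild-type embryos. AT2G43160, an ENTH-domain gene of the kind that acts in vesicle budding, kept 29 bases in 91.3% of 23 lefko reads (72.0 to 98.9) and 64.5% of 62 wild-type reads (51.3 to 76.3; Fisher's exact adjusted p = 0.0247). Its values were 100%, 80.0% and 100% in lefko embryos and 63.6%, 50% and 92.9% in wild-type embryos, which overlap. Without 1 value the highest Fisher's exact p was 0.112 at AT3G05270 and 0.174 at AT2G43160, and the difference at AT2G43160 then was 16.3 points.

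AT1G67850, of a family defined by the DUF707 domain, has 2 upstream sites in its leader, 188 and 29 bases before a shared downstream site at which 1 lefko read and 16 wild-type reads were counted. The longer of these exons took 96.3% of 27 lefko reads (81.0 to 99.9) and 78.7% of 75 wild-type reads (67.7 to 87.3; Fisher's exact adjusted p = 0.0504). The other took 95.8% of 24 lefko reads (78.9 to 99.9) and 75.0% of 64 wild-type reads (62.6 to 85.0; Fisher's exact adjusted p = 0.0456). The values at the more distant site were 100%, 85.7% and 100% in lefko embryos and 87.5%, 88.5% and 60% in wild-type embryos, which overlap. At the nearer site they were 100%, 90% and 100% in lefko embryos and 85.7%, 84.2% and 58.3% in wild-type embryos, without overlap. Both shares rest on the same shorter-exon reads and are not separate evidence. Without the third wild-type value the differences were 8.30 and 10.8 points (Fisher's exact p = 0.411 and 0.241). AT4G30820, for an assembly factor of the CDK-activating kinase, had 9 of 9 lefko reads with a 235-base segment and 6 of 14 wild-type reads (Fisher's exact adjusted p = 0.0134, and p = 0.206 without the third lefko value). Its segment holds 7 ATG triplets, and 4 of the 8 segments in the 5′ UTR held at least 1.

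The remaining events had 9 to 11 lefko reads. In the 3′ UTR, AT5G17460, for a subunit of a glutamyl-tRNA amidotransferase, had 2 of 11 lefko reads with a 14-base segment and 36 of 65 wild-type reads (Fisher's exact adjusted p = 0.0593, highest unadjusted p without 1 value 0.142). AT5G48620, of the CC-NBS-LRR class of disease resistance genes, had 9 of 9 lefko reads with a 21-base segment and 45 of 58 wild-type reads (Fisher's exact p = 0.188). AT1G33615, a non-coding RNA gene with sites 99 bases apart, had the largest difference, -88.9 points, with 1 of 9 lefko reads and 6 of 6 wild-type reads (Fisher's exact adjusted p = 0.00401). Its values overlapped, since 1 lefko value held a single read of the longer exon, and without the third lefko value the p was 0.0833.

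Both acceptors ended in AG and the donor was GT in all 33 events. Both junctions were annotated in 21 events, only the downstream one in 8, only the upstream one in 3 and neither in 1. A weight matrix built on 131540 annotated nuclear 3′ splice sites, whose median score was 7.09 bits, gave a median of 5.84 bits for the upstream sites and 7.19 bits for the downstream sites. The downstream site scored higher in 21 of 33 events, and in 24 of 33 in the rest of the table. The upstream site had more pyrimidines in the 18 bases before its AG in 20 events, fewer in 8 and as many in 5. In the rest of the table these counts were 23, 4 and 6. The site with the higher score had the larger share in lefko embryos in 16 events and the smaller in 17. At the downstream sites AAG made up 18.2% (6 of 33) and at the upstream sites 6.06%, against 7.43% of annotated sites. In the rest of the table it made up 3.03% of downstream and 30.3% of upstream sites. The downstream site of MAF3, which is an AAG, had the lowest score among the acceptors of the 33 events, 0.05 bits, which 0.758% of annotated sites lie below. At AT2G41060, AT5G65740, AT4G30820 and AT3G28956 an annotated transcript that uses the upstream site splices another intron out of the segment, so the longer form need not hold all of it. Only coding transcripts were read for this, and the non-coding AT3G27990 is described above. Between the sites, 22 of the 33 segments held another AG that these events do not use.

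**Figure D4:**
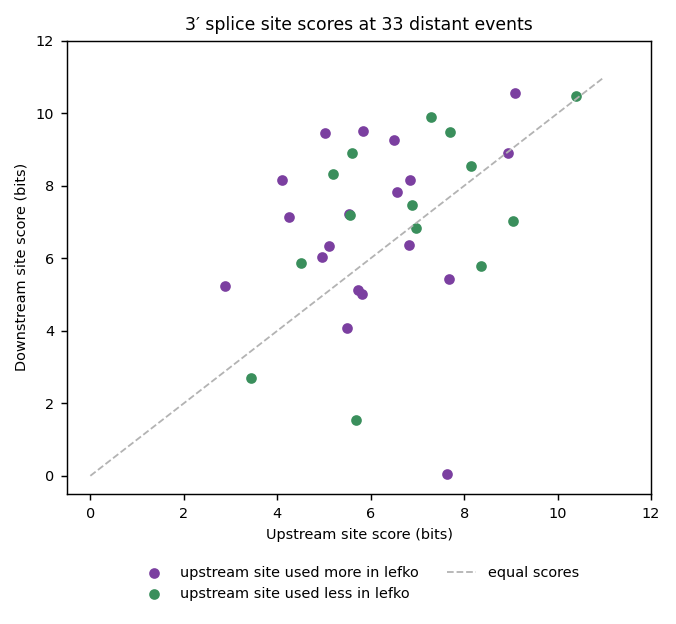
Weight matrix score of the downstream site (y axis, bits) against that of the upstream site (x axis, bits) at the 33 distant events, in purple where the upstream site had the larger share in lefko embryos and in green where it had the smaller. Of the points, 21 lie above the dashed line of equal scores, and both colours lie on either side of it.

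Of the 32 genes, 5 were also listed in other tables, and in each the events share their shorter-form reads. AT3G27990, AT4G30820 and AT5G65740 had an alternative 5′ and an intron retention event as well, and AT1G17940 and AT3G05270 a retention event. The retained share at AT1G17940 was 100% of 108 lefko reads and 80.7% of 441 wild-type reads, with 0 and 85 reads spliced to the downstream site, as at its 3′ sites. This share sets retention against the downstream junction only, so it does not say that lefko embryos left the intron unspliced. Whether reads of the retained intron also count towards the longer exon is not explained by any label. At AT3G05270 it was 94.1% of 17 lefko reads and 68.2% of 154 wild-type reads. None of 11 genes for 3′ splice site recognition and the second splicing step, among them the U2AF subunits, SF1, PRP8A and the SLU7 homologues, had an event in any table. The share of all genes with a listed event was not computed, so no reading is drawn from a count of 0 among so few genes. The tables do not show whether their levels differed.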

How the data were processed

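RNA-seq libraries of lefko and wild-type embryos (1 sample per genotype) were aligned with HISAT2 2.0.4 to TAIR10, per the submitters' processing notes. No source used here names the splicing caller. For each event the authors deposited exon coordinates, read counts of the longer and shorter form (headed IC and SC, a reading not explained by any label), a p-value and an FDR. Each count cell joins 3 whole numbers, so no count model was used. Shares were not corrected for length: reads inside a long segment may count only towards the longer exon, so shares compare genotypes and not events. The number of events tested by the authors, 2788, follows from the ratio of p-value to FDR at each rank, and 53 of 66 events gave it within 1%.

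Reads were summed per genotype. Intervals are exact Clopper-Pearson at 95%, and a count of 0 was given a limit of 3 reads; both cover counting error only, as reads carry no molecular identifiers. The log2 odds ratio used a pseudocount of 0.5 reads. Fisher's exact tests (two-sided, SciPy 1.17.1) were adjusted over the 66 events. The code was run on simulated reads with a fixed share per genotype. Those reads had no added spread among the 3 values and no selection for a difference, so they do not show how the test behaves on these data. Coordinates, counted from 1, match TAIR10.1 accessions. Frames were read from the listed or overlapped gene's transcript with the longest coding sequence that holds either junction; in 46 of 46 checked transcripts the annotated protein length came out. The weight matrix spans 20 intron and 3 exon bases. Members and lists were chosen with earlier results of these data known. Full values are given for events with at least 20 reads per genotype and a difference of at least 10 points, and every gene is named. Markers of embryo (4 genes), endosperm (5) and seed coat (4) had no event in any table, and no reading is drawn from this. Alternatives changed the summing, the values used, the pseudocount, the read minimum, the FDR, the distance and the transcript.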

Additional observations from a re-analysis of the deposited data

How the results depend on the processing

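The counts of events with a larger (19) and a smaller (14) share in lefko embryos stayed within 1.5 times under every alternative run except the authors' FDR under 0.01, where the split was 8 and 11. Without events sharing shorter-form reads it was 13 and 13. Keeping AT4G34280 changed nothing, since it does not meet the rule. Leaving out 1 of the 3 values of a genotype at a time gave 18 to 19 larger and 14 to 15 smaller shares, and 14 to 23 events with a Fisher's exact p under 0.05, against 25 with all values. The lowest counts came without the third (14) and the first lefko value (16). Across the single events, 231 alternatives gave 188 results on the same side, 38 that lost a Fisher's exact p under 0.05 (in 15 events), 3 that gained one and 2 of opposite sign: ABCB26 at -1.82 points without the first wild-type value (34.6 without the third lefko value), and AT3G28956 at -4.31 points without the second lefko value. The longer reading frame had the larger lefko share in 12 to 13 of 14 events with 1 value left out. Without events that had no lefko read at a site it had the larger share in 6 of 8. In every event so left out the longer frame had the larger lefko share, while ABCB26 and AT5G65740, where it was smaller, stayed. These alternatives were chosen after seeing the data, and the part that low counts have in the result was not tested. The median difference was 22.4 to 27.3 points with 1 value left out. Depth limits many events: 13 of the 33 events had fewer than 20 lefko reads. No paired analysis was possible because each genotype is 1 sample and the 3 values carry no labels.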
